A study of Mus musculus with 6 samples.

Results

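The 10 genes Jak1, Jak2, Stat3, Stat5a, Stat5b, Stat6, Socs1, Socs2, Socs3 and Cish were taken from the deposited counts by their symbol, out of 21960 genes in all. RNA-Seq had been performed on 3 mock and 3 p140Cap libraries of TuBo cells, a mouse mammary cancer line. It stems from a tumor of the BALB/c-MMTV-NeuT strain, in which the mammary tumor virus promoter drives the rat neu (HER2) oncogene. All libraries therefore come from cells with that transgene, and the labels call the mock genotype wt. The p140Cap cells additionally carry p140Cap cDNA in the retroviral vector pBabe-puro, were selected with puromycin, and were obtained by pooling clones expanded from single cells. The sources used here do not say whether the mock cells went through the same vector, selection and cloning, and the labels name the samples both as cell lines and as mice.

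JAK kinases sit on the inner side of cytokine receptors and are activated when a ligand joins the receptor chains. They phosphorylate STAT proteins, which pair through their SH2 domains, enter the nucleus and bind DNA at gamma-activated sites, whose core is written TTCNNNGAA. The SOCS proteins and CIS (the product of Cish) are feedback inhibitors whose genes are themselves induced by STATs. In the mammary gland STAT5 follows prolactin and drives milk protein genes and alveolar development, while STAT3 is known for its role in involution and in inflammatory signaling of breast tumors. mRNA levels do not report STAT phosphorylation, which was not measured here.

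The upstream sequences of the members were examined first, because SOCS and CIS genes are known STAT targets and the letters of the site can be searched directly. RefSeq windows of the build GRCm38.p6 were found for 9 of the 10 members, Socs2 being the one with no window, and covered 11 start sites. In the 250 bases before each start, TTCNNNGAA, which reads the same on both strands, occurred in 1 of the 11 windows, that of Socs3 (SOCS3, an inhibitor of gp130 receptors and JAKs). Among 32851 windows of all genes, 7.02% held these letters. The variant with a wider gap, TTCNNNNGAA, which is favored by STAT6 and also reads the same on both strands, was in none of the 11 windows and in 5.85% of all windows. The Socs3 match starts 154 bases before a start site that lies inside the RefSeq gene span, and is shown with 10 bases on each side, from chr11:117969502-117969530 on the minus strand, with the motif in capitals. The window of Cish, from chr9:107296409-107296658 on the plus strand, is shown in full because Cish was the member that changed most; it has no capitals, since neither motif occurs in these letters, and that says nothing of sites outside the window.
Socs3: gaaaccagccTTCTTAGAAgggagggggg
Cish: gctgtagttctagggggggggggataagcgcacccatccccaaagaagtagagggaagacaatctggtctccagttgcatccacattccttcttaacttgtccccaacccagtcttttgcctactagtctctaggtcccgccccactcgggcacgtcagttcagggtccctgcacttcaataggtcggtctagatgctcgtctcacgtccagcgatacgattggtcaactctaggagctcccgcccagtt

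The libraries held between 13770385 and 75506562 reads on genes, and every mock library was deeper than every p140Cap library. Levels are given in CPM, the counts scaled to the adjusted library sizes. Srcin1, which encodes p140Cap, lay between 12.8 and 16.6 CPM in the mock libraries and between 2243 and 2519 CPM in the p140Cap libraries, as the labels state. The cells carried epithelial markers, with Epcam, Cdh1, Krt8, Krt18 and Erbb2 each over 500 CPM in both groups. Whether reads of the rat neu transgene were counted on Erbb2 was not tested. Of the 10 epithelial markers of the list, Krt19 stayed under 1 CPM and Krt7 fell from 803 to 447 CPM (log2 fold change -0.84, edgeR adjusted p = 9.45e-10). The summed level of 10 leukocyte markers was 2.16 to 2.37 CPM in mock and 3.31 to 4.22 CPM in p140Cap libraries, and the defining marker Ptprc had no read. The 8 fibroblast markers summed to 9.97 to 10.5 CPM in mock and 11.3 to 14.1 CPM in p140Cap libraries, mostly from Pdgfra (7.18 and 7.67 CPM on average) and Col1a1 (2.97 and 5.02 CPM), with no read of Col1a2, Col3a1, Dcn, Lum or Thy1, and the 6 endothelial markers summed to 0.270 to 0.553 CPM in mock and 0.613 to 0.923 CPM in p140Cap libraries. In the leukocyte list 9 of 10 markers were under 1 CPM in every library, and the sum was almost that of Cd68 alone, a macrophage marker at 2.14 CPM in mock and 3.76 CPM in p140Cap cells on average. The epithelial markers summed to 6460 to 7002 CPM in mock and 7238 to 7508 CPM in p140Cap libraries. The sums of all 4 marker lists were thus higher in p140Cap libraries, and their part in the results was not tested. In these bulk samples fewer cells of a type and less RNA per cell cannot be told apart.

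Between p140Cap and mock cells, 9 of the 10 members had enough reads for a test, and all 9 were differentially expressed, beside 71.1% of all genes tested. Jak1, Jak2 and the 4 STAT genes all rose in p140Cap cells, up to 1.42 times the mock level. Among the inhibitors, Cish rose 2.70 times and Socs3 1.52 times, whereas Socs2 fell to 0.875 of its mock level. Socs1 was near the detection limit in both groups. Calls were made at an adjusted p under 0.05 with edgeR's quasi-likelihood test over 11800 genes and Benjamini-Hochberg adjustment.

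These counts have to be read against a contrast in which most genes moved. Of all genes tested 35.2% were called higher and 35.9% lower in p140Cap cells, so a call by itself does not set a member apart. Of the 9 members tested, 8 were higher and 1 was lower. The median log2 fold change of the 9 was 0.31, and that of all genes tested was 0.00. In absolute size the members were ordinary, with a median of 0.31 against 0.32 for all genes. The CPM values of the 2 groups did not overlap for 9 of 9 members and for 73.4% of all genes tested.

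**Figure D1:**
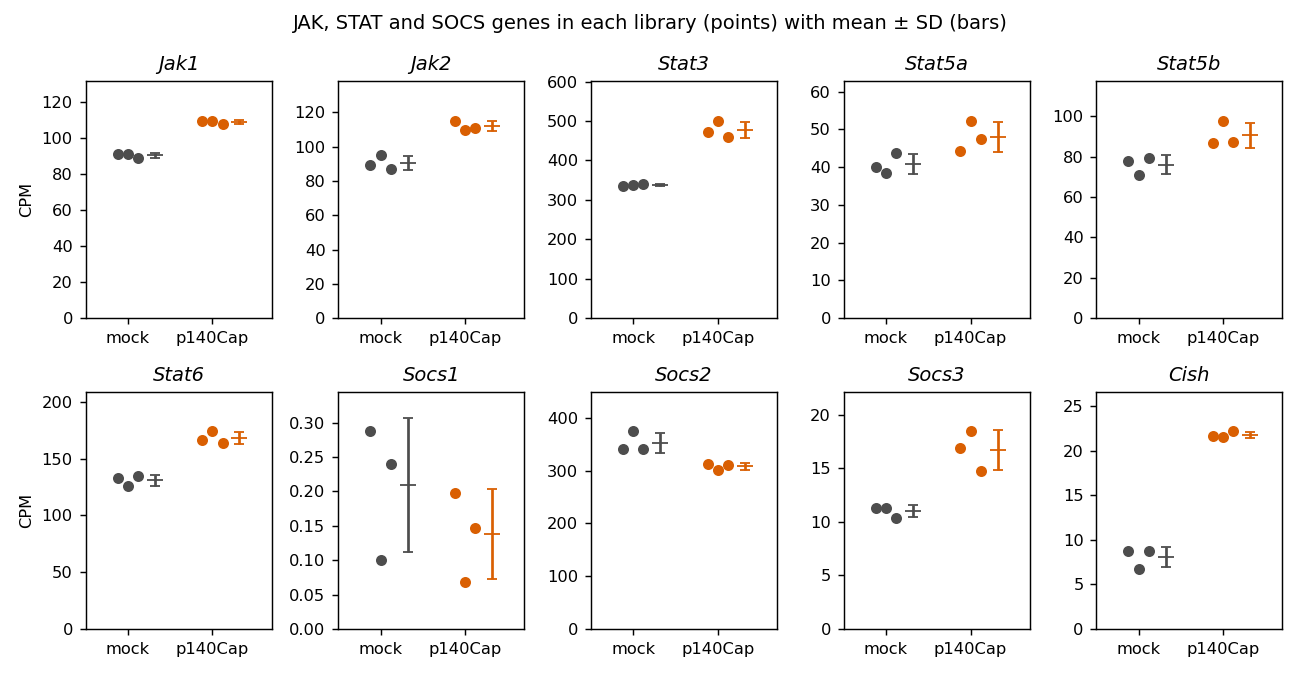
CPM of each of the 10 members (vertical axis, from 0) in the 3 mock and 3 p140Cap libraries; points are libraries and bars beside them are the mean ± SD. The groups are apart for 9 genes, with p140Cap lower only for Socs2, and overlap for Socs1, which stayed below 0.3 CPM.

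Jak1 and Jak2 encode the kinases used by most cytokine receptors of epithelial cells, JAK1 by gp130, interferon and interleukin receptors and JAK2 by the prolactin, growth hormone and interferon-γ receptors. Jak1 (ENSMUSG00000028530; chromosome 4 of GRCm38.p6, 101151974 to 101265282, minus strand) was at 91.2, 90.9 and 88.7 CPM in mock replicates 1 to 3 and at 109, 109 and 108 CPM in p140Cap replicates 1 to 3. All p140Cap libraries were above all mock libraries, by a margin several times the spread within either group. The log2 fold change of Jak1 was 0.27 (SE 0.05, edgeR adjusted p = 5.82e-05).

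Jak2 (ENSMUSG00000024789; chromosome 19, 29251803 to 29313095, plus strand) had nearly the same CPM as Jak1, with 89.0, 94.8 and 87.0 CPM in mock and 115, 110 and 111 CPM in p140Cap libraries. The groups did not overlap, and the log2 fold change was 0.31 (SE 0.05, edgeR adjusted p = 3.26e-05). Jak2 lies on a chromosome whose genes were mostly lower in p140Cap cells. For its 424 tested genes the median change was -0.34 on the log2 scale, and 65.1% of them were called lower, whereas the medians of the chromosomes that carry the other members lay between -0.01 and 0.02. Only 46 of the 424 had a higher log2 fold change than Jak2, which thus stood at percentile 88.9 of its chromosome. Whether the lower genes of chromosome 19 bear on Jak2 was not tested.

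Stat3, the factor downstream of gp130 cytokines, was the most abundant STAT transcript and the one that changed most. Stat3 (ENSMUSG00000004040; chromosome 11, 100886806 to 100939594, minus strand) was at 335, 338 and 339 CPM in the mock libraries and at 471, 501 and 461 CPM in the p140Cap libraries. The mock libraries were almost identical and the lowest p140Cap library was well above them. Its log2 fold change was 0.50 (SE 0.05, edgeR adjusted p = 7.97e-08), corresponding to 1.42 times the mock level.

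Stat6, which carries interleukin-4 and interleukin-13 signals, was next. Stat6 (ENSMUSG00000002147; chromosome 10, 127642955 to 127660987, plus strand) was at 133, 126 and 135 CPM in mock and at 167, 174 and 163 CPM in p140Cap libraries, without overlap. The log2 fold change was 0.36 (SE 0.05, edgeR adjusted p = 4.69e-06).

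Stat5a and Stat5b encode the closely related factors of prolactin and growth hormone signaling and are neighbors of Stat3 on chromosome 11. Stat5a (ENSMUSG00000004043; 100859351 to 100885169, plus strand) was at 40.1, 38.5 and 43.7 CPM in mock and at 44.3, 52.3 and 47.4 CPM in p140Cap libraries. The groups were apart by less than 1 CPM, between mock replicate 3 and p140Cap replicate 1. The log2 fold change was 0.24 (SE 0.07, edgeR adjusted p = 0.00437), the smallest of the rises. It was no longer called in the 1 planned thinning of all libraries to the smallest total (log2 fold change 0.12, adjusted p = 0.278).

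Stat5b (ENSMUSG00000020919; 100780731 to 100859004, minus strand) was the more abundant of the pair, with 77.9, 70.7 and 79.5 CPM in mock and 86.6, 97.8 and 87.1 CPM in p140Cap libraries. Its groups did not overlap, and its log2 fold change was 0.25 (SE 0.06, edgeR adjusted p = 0.00126). The RefSeq spans of Stat3 and Stat5a given here do not overlap, but in the GENCODE annotation both genes overlap each other on opposite strands. The library kit was stranded, but no source used here says if the strand entered the counting, so reads in the shared stretch could have been assigned to either gene.

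Cish, whose product CIS binds STAT5-activating receptors, had the largest change of the members. Cish (ENSMUSG00000032578; chromosome 9, 107296659 to 107302784, plus strand) was covered by 668, 268 and 292 reads in mock and by 328, 317 and 302 reads in the less deep p140Cap libraries. This gives 8.73, 6.74 and 8.77 CPM in mock and 21.6, 21.6 and 22.2 CPM in p140Cap libraries. Every p140Cap library was thus above 2 times the highest mock library. The log2 fold change was 1.42 (SE 0.09, edgeR adjusted p = 1.12e-09), and by absolute change Cish stood at position 561 of 11800 genes, with the next member, Socs3, at 2960.

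Socs3 (ENSMUSG00000053113; chromosome 11, 117966079 to 117970336, minus strand) was a low transcript with 11.3, 11.3 and 10.4 CPM in mock and 16.9, 18.5 and 14.8 CPM in p140Cap libraries. The p140Cap libraries differed among themselves more than the mock libraries did, but all lay above them. The log2 fold change was 0.60 (SE 0.09, edgeR adjusted p = 1.05e-05).

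Socs2, an inhibitor of growth hormone signaling, moved the other way. Socs2 (ENSMUSG00000020027; chromosome 10, 95383903 to 95417321, minus strand) was at 341, 375 and 342 CPM in mock and at 313, 301 and 312 CPM in p140Cap libraries. Mock replicate 2 was highest, and all p140Cap libraries lay below the lowest mock library. The log2 fold change was -0.19 (SE 0.05, edgeR adjusted p = 0.00277), the smallest absolute change of the 9.

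Socs1, which encodes an inhibitor of JAKs that is prominent in interferon-γ responses, was barely detected. Socs1 (ENSMUSG00000038037; chromosome 16, 10783808 to 10785536, minus strand) was hit by 22, 4 and 8 reads in mock and by 3, 1 and 2 reads in p140Cap libraries, too few for the test. Over all libraries of a group the 34 and 6 reads give 0.227 CPM in mock and 0.138 CPM in p140Cap cells. The level in mock was 1.65 times that in p140Cap cells, and the exact 95% interval from counting error alone ran from 0.683 to 4.80, so neither a rise nor a fall was detectable at this depth.

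**Figure D2:**
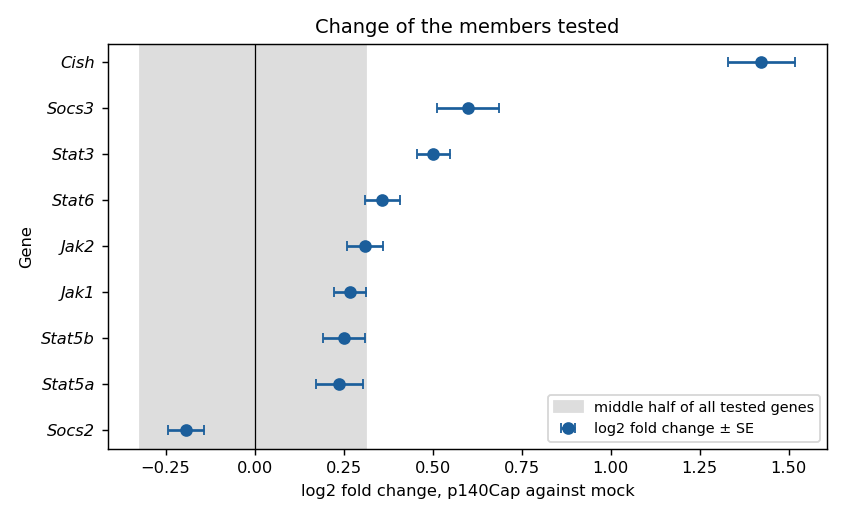
Log2 fold change of p140Cap against mock cells (horizontal axis) for the 9 members tested, with SE as bars; the gray band runs between the quartiles of all 11800 genes tested, -0.32 and 0.31. Cish, Socs3, Stat3 and Stat6 lie beyond the band, and Socs2 is the only member below 0.

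Except for Stat5b, each member is overlapped by at least 1 annotated gene on the other strand (GENCODE), and Jak1 also by 1 gene on its own strand. The reads of these genes are uncertain to that extent.

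Levels of different genes were compared per kilobase of merged exons, in CPM per kilobase. In mock cells the order was Stat3 (33.4), Socs2 (23.1), Stat6 (19.6), Jak2 (14.3), Stat5b (11.0), Jak1 (8.34), Stat5a (4.94), Socs3 (3.09), Cish (1.26) and Socs1 (0.0619), and no neighbors in this order overlapped over the 3 libraries. In p140Cap cells Stat6 (25.1) stood above Socs2 (20.2), and the other members kept their places. Stat3 rose to 47.3, Socs3 to 4.69 and Cish to 3.40 CPM per kilobase, so that Cish remained the lowest of the 9 tested members. The order depends on the exon lengths of the annotation, among which that of Socs2, 15258 bases, was the longest.

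**Figure D3:**
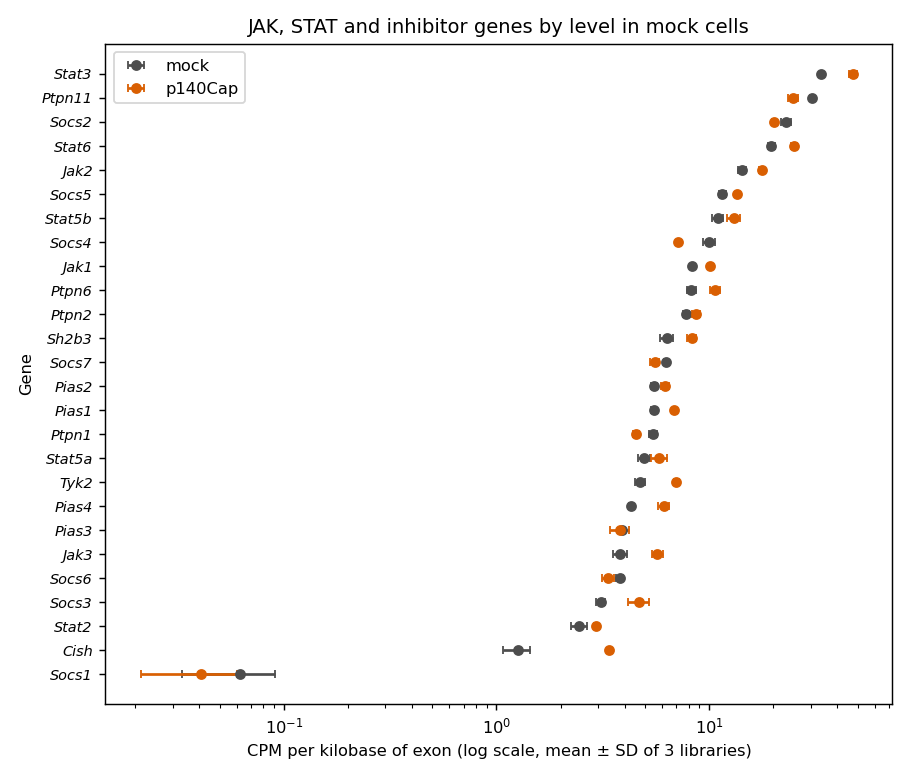
Level in CPM per kilobase of exon (horizontal log axis) of the members and of other JAK, STAT and inhibitor genes with reads, as the mean ± SD of 3 mock and 3 p140Cap libraries, ordered by mock level. Stat3 leads in both groups, at 33.4 and 47.3, and Socs1 lies far below the rest.

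Ratios between members within a library do not depend on normalization, and 5 such ratios were compared with an exact two-sided permutation test. With 3 against 3 libraries this test cannot give a p below 0.1. Within related pairs, the log2 ratio of Stat5a to Stat5b was -0.90 ± 0.05 in mock and -0.92 ± 0.05 in p140Cap libraries (SD, n = 3 each), a difference of -0.02 (exact permutation p = 0.6). The log2 ratio of Jak1 to Jak2 was 0.00 ± 0.05 and -0.04 ± 0.03 (exact permutation p = 0.3). For both pairs the libraries of the groups overlapped, so the members of each pair were not seen to change unequally, although with so few libraries a small difference would be missed.

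None of the 5 ratios passed the test, but in the next pair of ratios the groups did not overlap. The log2 ratio of Socs2 to Cish was 5.29, 5.80 and 5.28 in mock and 3.85, 3.80 and 3.81 in p140Cap libraries. The groups were far apart, with a difference of -1.63 (exact permutation p = 0.1, the smallest possible, and 0.25 after adjustment over the 5 ratios). The log2 ratio of Stat3 to Stat5a was 3.05 ± 0.09 in mock and 3.32 ± 0.08 in p140Cap libraries (SD, n = 3 each), likewise without overlap (exact permutation p = 0.1, and 0.25 after adjustment). The ratio of Socs1 to Socs3 overlapped between groups (exact permutation p = 0.3) and rests on the few Socs1 reads.

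**Figure D4:**
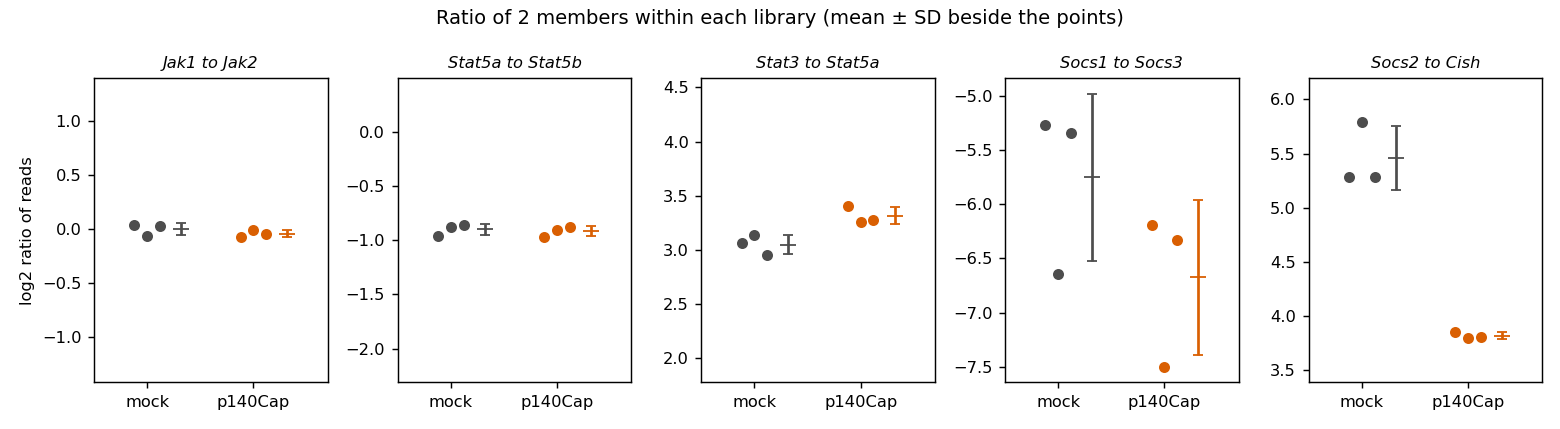
Log2 ratio of the reads of 2 members within each library (vertical axis, the same span of log2 units in each panel) for 3 mock and 3 p140Cap libraries, with the mean ± SD beside the points. Stat5a to Stat5b stays near -0.9 in both groups, while Socs2 to Cish falls from 5.45 to 3.82 on average.

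Of 4 other JAK and STAT genes that were tested, 3 rose and none fell, a share of calls of 75% beside 71.1% of all genes tested. With thinning to the smallest library the 3 calls became 2. Jak3, best known from lymphoid cells, rose from 29.8 ± 2.21 to 44.5 ± 2.75 CPM (SD, n = 3 each; log2 fold change 0.58, edgeR adjusted p = 8.51e-07), and Tyk2 from 41.4 ± 2.38 to 61.2 ± 1.69 CPM (0.56, adjusted p = 1.46e-07). Both kinase genes thus changed more than Jak1 and Jak2 in point estimate, a difference that was not tested. Stat2 rose with a log2 fold change of 0.25 (edgeR adjusted p = 0.00907), and Stat4 had no read.

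All 13 genes of the list of other negative regulators were tested, with 7 higher, 5 lower and a median log2 fold change of 0.16. The share of calls was 92.3%, beside 71.1% of all genes tested, of which 35.2% were higher and 35.9% lower. The 12 calls of this list became 10 with thinning and between 9 and 12 with 1 library left out, the fewest without p140Cap replicate 3. The SOCS genes Socs4, Socs6 and Socs7 went down in p140Cap cells, as Socs2 did. Socs4 fell from 69.0 ± 4.16 to 49.1 ± 0.437 CPM (SD, n = 3 each; log2 fold change -0.49, edgeR adjusted p = 7.3e-07), and Socs6 and Socs7 fell by 0.18 each on the log2 scale (edgeR adjusted p = 0.0134 and 0.00877). Socs5 rose, with a log2 fold change of 0.23 (edgeR adjusted p = 0.00041). Pias4, a SUMO ligase that restrains STATs, rose by 0.51 on the log2 scale, and Sh2b3 (LNK, an adaptor that restrains JAK2) by 0.38. The tyrosine phosphatase gene Ptpn11, which encodes SHP2 and had the highest level per kilobase of this list, fell by 0.29 on the log2 scale (edgeR adjusted p = 5.15e-05).

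Receptor chains that couple to JAKs were read from a list of 43 genes. Of these 21 were tested, and 16 were higher, 3 lower and 2 not called. Their share of calls was 90.5%, beside 71.1% of all genes tested, of which 35.2% were higher, and their median log2 fold change was 0.46. The 22 others had at most 0.15 CPM in any library. Epor had the largest change, from 1.43 ± 0.252 to 5.14 ± 0.690 CPM (log2 fold change 1.80, edgeR adjusted p = 5.76e-08), followed by Il20ra (1.77, edgeR adjusted p = 7.75e-09). Osmr, the oncostatin M receptor chain that signals with gp130 to STAT3, rose from 41.0 ± 1.25 to 91.2 ± 3.00 CPM (log2 fold change 1.15, edgeR adjusted p = 1.07e-11; SD, n = 3 each).

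Among chains that signal with gp130, no list of which was fixed, both directions occurred. Il6ra, the interleukin-6 receptor, fell from 12.2 to 6.79 CPM (log2 fold change -0.84, edgeR adjusted p = 1.06e-06), and Il6st, which encodes gp130 itself, fell by 0.16 on the log2 scale. Lifr rose by 0.22 and Il11ra1, the interleukin-11 receptor, by 0.52 on the log2 scale. Ghr, the growth hormone receptor, rose by 0.61 on the log2 scale. Prlr, the prolactin receptor, was at 85.4 and 90.5 CPM (edgeR adjusted p = 0.209). Il4ra, a receptor chain of STAT6 signaling, rose from 11.1 ± 0.667 to 22.9 ± 1.68 CPM (SD, n = 3 each; log2 fold change 1.04, edgeR adjusted p = 4.84e-09). Il13ra1, another chain that signals to STAT6, fell from 64.4 to 54.7 CPM (log2 fold change -0.24, edgeR adjusted p = 0.0076). Its groups overlapped, mock replicate 3 being at 59.7 and p140Cap replicate 1 at 60.8 CPM. Ifngr1 had the highest level per kilobase of the list and rose by 0.30 on the log2 scale.

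Few of the ligand genes had enough reads for a test. Of 37, 10 were tested, with 3 higher, 3 lower and 4 not called, a share of calls of 60% beside 71.1% of all genes tested. The gp130 cytokine gene Lif rose from 52.7 ± 3.87 to 91.2 ± 0.815 CPM (SD, n = 3 each; log2 fold change 0.79, edgeR adjusted p = 2.81e-09), and Il15 rose by 0.78 on the log2 scale. Other cytokine genes of the gp130 family went the other way, Ctf1 with a log2 fold change of -0.33 (edgeR adjusted p = 0.000655) and Cntf with -0.83 (edgeR adjusted p = 0.0187), and Clcf1 and Il11 were not called. Cntf rests on only 9, 10 and 5 reads in p140Cap replicates 1 to 3. With thinning the 6 calls of the ligand list became 4. Csf3, which encodes G-CSF, had a log2 fold change of -1.05, and its receptor gene Csf3r had no read. No read fell on Osm, Epo, Prl, Gh, Ifng or Ifnb1 in any library, which allows a level of up to 0.0392 to 0.22 CPM depending on the library, as 3 counts of its total and for counting error only.

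Genes widely given as STAT targets were counted next. Of 21 STAT3 target genes 17 were tested, of which 10 rose and 3 fell, with a median log2 fold change of 0.62. The share of calls, 76.5%, was near the 71.1% of all genes tested. The largest change was that of Fos, a subunit of AP-1, from 7.32 ± 0.139 to 20.6 ± 1.24 CPM (SD, n = 3 each; log2 fold change 1.49, edgeR adjusted p = 6.94e-11). Il4ra and Vegfa followed, the latter with a log2 fold change of 1.00 (edgeR adjusted p = 6.72e-11). Lcn2 (lipocalin 2, an acute-phase protein) had the highest level per kilobase, and rose from 3367 ± 149 to 5192 ± 157 CPM (log2 fold change 0.62, edgeR adjusted p = 7.51e-09). Bcl6 and Cebpd rose by 0.88 and 0.86 on the log2 scale. Myc, Birc5 and Mcl1 fell, with log2 fold changes of -0.73, -0.35 and -0.15. These genes also answer to other factors, and STAT3 binding was not measured.

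The genes of the STAT5 list were mixed in direction. Only 8 of its 18 genes were tested, of which 3 rose, 2 fell and 3 were not called, with a median of 0.05 and a share of calls of 62.5%, beside 71.1% of all genes tested. Csn3, which encodes κ-casein, rose from 4164 ± 130 to 8115 ± 426 CPM (SD, n = 3 each; log2 fold change 0.96, edgeR adjusted p = 6.94e-11). The other milk protein genes of the list, Csn1s1, Csn1s2a, Csn2, Lalba, Wap and Glycam1, were not tested, with at most 0.15 CPM. The kinase genes Pim1 and Pim2 rose by 0.76 and 0.57 on the log2 scale. Elf5, a factor of alveolar differentiation, fell by 0.12 and Akt1 by 0.49 on the log2 scale, and Ccnd1 was at 1415 and 1432 CPM (edgeR adjusted p = 0.738). The call of Elf5 was close to the threshold (edgeR adjusted p = 0.0356), and the list had 4 calls instead of 5 with a replicate block and in 4 of the 6 fits that left out 1 library.

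Of 13 STAT6 target genes 4 were tested, and 2 of them, among these Il4ra, rose, a share of calls of 50% beside 71.1% of all genes tested. Tgm2, the gene of this list with the highest level per kilobase, was at 455 ± 17.8 and 435 ± 16.0 CPM (SD, n = 3 each; edgeR adjusted p = 0.234). Without p140Cap replicate 2 this list had 4 calls among 5 genes tested, and 3 calls among 4 with at least 10 reads in every library or with thinning. Of 15 interferon target genes 7 were tested, with 5 higher and 1 lower and a median log2 fold change of 0.66. The share of calls was 85.7%, beside 71.1% of all genes tested. Tap1, a peptide transporter of antigen presentation, rose from 6.63 to 17.1 CPM (log2 fold change 1.37, edgeR adjusted p = 5.72e-10), Irf9, a partner of STAT2, by 0.57 and Irf1 by 0.32 on the log2 scale. Isg15 fell by 0.84 on the log2 scale (edgeR adjusted p = 0.00051).

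**Figure D5:**
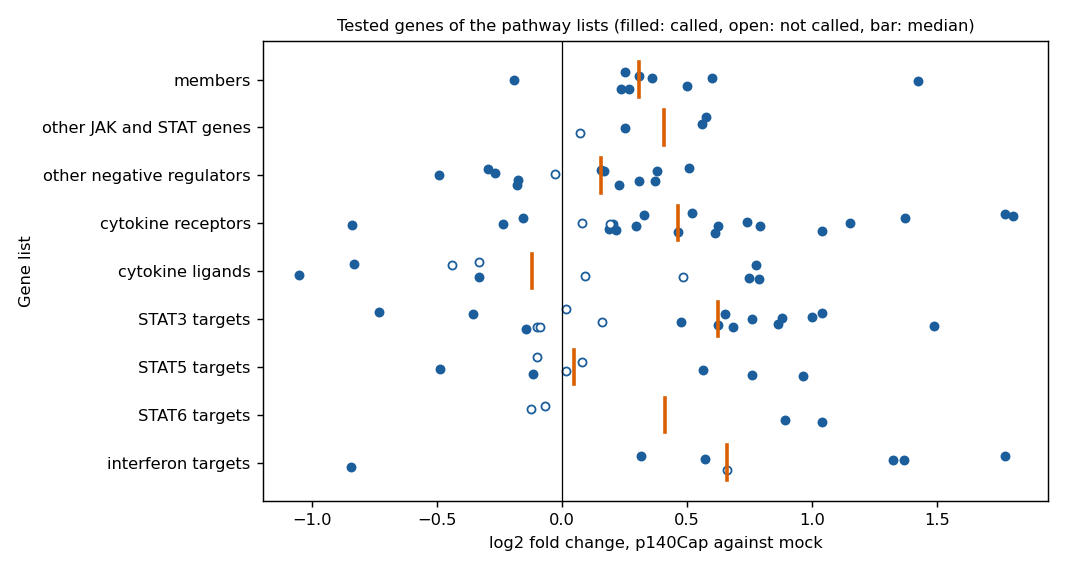
Log2 fold change of p140Cap against mock cells (horizontal axis) for the tested genes of the members and of 8 pathway lists; filled points were called at an adjusted p under 0.05, open points were not, and bars are list medians. The medians of the receptor list (0.46) and the STAT3 list (0.62) lie right of 0, those of the STAT5 list (0.05) and the ligands (-0.12) near it.

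Counting each gene once, the 8 lists held 157 genes, of which 78 were tested, 46 were higher and 17 lower. This gives a share of calls of 80.8%, beside 71.1% for all genes tested, and a median log2 fold change of 0.31, the same as that of the members.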

How the data were processed

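RNA-Seq counts of 3 mock and 3 p140Cap TuBo libraries were analysed. The authors deposited counts, that is whole numbers of reads per gene, without normalization. The submitters' processing notes list STAR 2.5, RSEM 0.1.1 and mm10 without their roles, and the paper names docker4seq and GRCm39. Whether RSEM estimates were rounded is not stated. Members and pathway lists were chosen with earlier results of these data known.

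The quasi-likelihood test of edgeR 4.0.16 (R 4.3.3) was fitted on 11800 genes passing filterByExpr, with TMM factors, group alone in the design and Benjamini-Hochberg adjustment (threshold 0.05). SE was derived from the log2 fold change and the F statistic. Ratios used reads plus 0.5. Scripts were tested on simulated data. Alternatives used DESeq2 1.42.0, limma 3.58.1, RLE factors, other filters, a replicate block, left-out libraries and thinning, and 20 further thinnings were added after seeing the data.

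The precision depends on the depth, 13770385 to 75506562 reads per library, and on the spread between the libraries of a group. Replicates of a group differed by more than sampling noise (mean chi-square 1.75 to 10.7, where noise gives 1), and no source says whether they came from separate cultures, so p-values measure the spread between these libraries only. Positions and promoter sequences are from RefSeq GRCm38.p6, the build of the processing notes. Exon lengths and overlapping genes are from GENCODE by Ensembl identifier. Sequences of proteins were not used here.

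Genes were named by rule: all members, Srcin1, and per list the gene with the highest level per kilobase and at most 3 called genes of largest change (mean log2 CPM of at least 1, no overlap between groups). Named after their values were seen were Stat4, Socs5, Socs6, Socs7, Il6ra, Il6st, Lifr, Il11ra1, Il13ra1, Ctf1, Cntf, Clcf1, Il11, Ghr, Prlr, Csf3r, the ligands with no read, Bcl6, Cebpd, Myc, Birc5, Mcl1, the milk protein genes other than Csn3, Elf5, Akt1, Ccnd1 and the markers of cell types (from fixed lists). Of the lists, 7 genes are in more than 1. Some genes that the rule or the lists take are not reported here.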

Additional observations from a re-analysis of the deposited data

How the results depend on the processing

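The 9 member calls kept their direction under 13 other settings (limma-voom, DESeq2, RLE factors, no filter, 10 or more reads per library, a replicate block, thinning and each library left out), and 1 call was lost, that of Stat5a with thinning. Over 20 further thinnings, Stat5a was called in 15 and Stat5b in 17, and the other 7 in 20. The count of STAT6 targets called went from 2 to 4 without a filter on low counts, where 7 were tested, was 3 with thinning and with 10 or more reads per library, and lay between 2 and 4 with 1 library left out. The difference between groups (p140Cap minus mock) in the log2 ratio of Stat5a to Stat5b, -0.016, lay between -0.046 and 0.009 with 1 library left out, was -0.12 with thinning (exact permutation p = 0.2), and was above 0 without mock replicate 3 (0.003) and without p140Cap replicate 1 (0.009). The cause of these changes was not tested. Leaving out p140Cap or mock libraries kept 9 member calls each time. Same-numbered libraries did not deviate together (correlations -0.11 to -0.03), so the numbers were not taken as pairs. With the replicate block 8034 genes were called in place of 8388, and 9 members remained called. Socs1 was tested only without the filter (adjusted p = 0.431, edgeR) and with DESeq2 (adjusted p = 0.607).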
